A study of Mus musculus with 8 samples.

Results

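The formyl peptide receptors of the mouse are a small gene family, and 7 of the 27532 genes in the deposited table belong to it. They were chosen by symbol: Fpr1, Fpr2, Fpr3 and every symbol that begins with Fpr-rs, which are Fpr-rs3, Fpr-rs4, Fpr-rs6 and Fpr-rs7. All 7 passed the filter on low values used for testing, 0.5 TPM or more on average over all libraries, although Fpr3 and Fpr-rs4 passed only through the heterozygous group, with knockout means below that value. TPM is a relative abundance corrected for transcript length and scaled to a common sum in each library.

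Whole vomeronasal organs of adult mice were sequenced as bulk polyadenylated RNA, 1 library per animal. The Tex15 heterozygous group (HET) held 1 male of 11.4 weeks and 3 females of 14.6, 11.9 and 11.9 weeks. The Tex15 knockout group (KO) held 1 female of 11.9 weeks and 3 males of 11.9, 11.9 and 12.1 weeks. The controls carried 1 altered Tex15 allele, no wild-type animals were analysed here, and the nature of the alleles and the strain is not given in the sources used here.

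Formyl peptide receptors are G protein-coupled receptors that bind peptides starting with formyl-methionine, a mark of bacterial and mitochondrial proteins, along with host ligands such as annexin A1. Fpr1 and Fpr2 act on neutrophils and macrophages, where they guide migration and trigger the oxidative burst; they are called the immune members here. The other genes belong to an expansion in rodents and are used as chemosensory receptors by neurons of the vomeronasal organ: Fpr-rs3, Fpr-rs4, Fpr-rs6 and Fpr-rs7 in apical neurons that signal through the G protein subunit Gnai2, and Fpr3 in basal neurons that signal through Gnao1. They are called the vomeronasal members here, alongside the larger V1R and V2R receptor families of the same organ. Tex15 is known from the male germ line, where it is needed for silencing of transposable elements.

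The bases around the start codon show how the family is built. The coding sequence of each gene lies in 1 uninterrupted exon, preceded by a separate upstream exon where one is annotated. For the 5 vomeronasal members, 40 bases before and 33 bases from the start codon are shown, since this window holds the longest stretch that all 5 upstream windows had in common. The sequences are from RefSeq (build GRCm38.p6, chromosome 17), and capitals mark the start codon ATG and the shared stretch ATTGTTGAA.
Fpr3 (chr17:17970429-17970501, plus strand): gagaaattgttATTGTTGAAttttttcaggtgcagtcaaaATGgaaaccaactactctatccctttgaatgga
Fpr-rs3 (chr17:20624845-20624917, minus strand): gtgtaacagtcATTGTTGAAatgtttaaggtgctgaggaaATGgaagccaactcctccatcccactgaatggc
Fpr-rs4 (chr17:18021693-18021765, plus strand): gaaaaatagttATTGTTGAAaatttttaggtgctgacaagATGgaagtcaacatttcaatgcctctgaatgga
Fpr-rs6 (chr17:20183065-20183137, minus strand): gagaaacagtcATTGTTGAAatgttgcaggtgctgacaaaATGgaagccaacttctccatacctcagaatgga
Fpr-rs7 (chr17:20114194-20114266, minus strand): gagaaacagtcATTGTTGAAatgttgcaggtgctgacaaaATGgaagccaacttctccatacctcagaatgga

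The shared stretch began 29 bases before the start codon in all 5 genes, and the windows of Fpr-rs6 and Fpr-rs7 were identical. It was found after the sequences were seen. Searched on both strands, the 9 letters ATTGTTGAA occurred in 60 of the 32851 RefSeq windows of 300 bases (250 before and 50 after a gene's start), or 0.183%, with the 5 members among the 60. Windows of this kind surround the start of a gene as annotated in RefSeq. There it lies at the coding exon in the vomeronasal members but at the separate upstream exon in Fpr1 and Fpr2. The bases before the coding exons of the immune members were therefore not searched. In GENCODE M21 the Fpr3 transcript, too, starts at a separate upstream exon. The last 11 bases before the start codon followed an AG in all 5 vomeronasal members. For the immune members the GENCODE M21 transcripts (build GRCm38) place the matching 11 bases at the start of the coding exon, and they are shown here with 33 bases from the start codon for comparison, with ATG in capitals.
Fpr1 (chr17:17877693-17877736, minus strand): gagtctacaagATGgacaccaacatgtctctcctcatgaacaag
Fpr2 (chr17:17892733-17892776, plus strand): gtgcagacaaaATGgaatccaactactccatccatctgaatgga

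Over the whole coding sequence, the split by tissue is not a split by sequence. Fpr2 and Fpr3 were 88.1% identical at the nucleotide level and both encode 351 amino acids, while Fpr3 shared 69.5% to 73.1% with the 4 apical members. Fpr-rs6 and Fpr-rs7 were the closest pair, at 96.7%, and the other pairs of apical members lay between 78.9% and 82.3%. Fpr1 was the most distant member, at 60.6% to 66.6% identity with each of the others.

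These similarities bear on how reads are assigned. Every window of 100 bases in the coding sequences of Fpr1, Fpr3, Fpr-rs3 and Fpr-rs4 was absent from the GENCODE M21 transcripts of all other genes, and 96.1% of the windows were unique in Fpr-rs6 and in Fpr-rs7, the rest being shared between those genes. In Fpr2 83.3% were unique and the rest were shared with Gm5966. Values of Fpr-rs6, Fpr-rs7 and Fpr2 are uncertain to the extent that the authors' counting split such reads, a step not given in the sources used here. Bases outside the coding sequence, which for Fpr3, Fpr-rs3 and Fpr-rs4 make up most of the length the authors appear to have counted over (given with the order of levels), were not checked, so reads of these genes may be shared too. The first exon of the Fpr3 transcript in GENCODE M21 (chr17:17887852-17887899, 48 of its 1268 exon bases) also lies inside an exon of Fpr2, upstream of the coding exons of both genes.

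The 8 libraries held between 17888124 and 26431454 reads assigned to genes, recovered from the steps between low TPM values, of which 97.8% to 98.3% fell on whole reads per library. HET replicate 1 stood apart in the marker Omp of mature sensory neurons, at 66.65 TPM against 627 to 943 TPM in the other HET and 571 to 749 TPM in the KO libraries. The number of genes at 0 was 2988 in KO replicate 1 and between 1287 and 1808 in the rest. Tex15 itself stood at 2.27 to 2.81 TPM in HET and 0.870 to 1.23 TPM in KO libraries. No source states whether separate animals came from separate litters, so p-values measure the spread between these 8 animals.

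Fpr3, the vomeronasal member of basal neurons (ENSMUSG00000079700, chr17:17887852-17971677, plus strand), showed the largest difference of the 7 genes. It stood at 3.48, 2.28, 5.73 and 5.58 TPM in HET replicates 1 to 4 and at 0.0418, 0.203, 0.381 and 0.0759 TPM in KO replicates 1 to 4. Every KO library lay below every HET library, and the lowest HET value was several-fold above the highest KO value. The mean was 4.27 ± 1.67 TPM in HET and 0.175 ± 0.153 TPM in KO (SD, n = 4 each), so that KO held 4.1% of the HET mean. In reads, these values are 141, 81, 130 and 159 in HET against 1, 6, 10 and 2 in KO. Pooled over libraries, 511 HET and 19 KO reads gave a level 24.6-fold lower in KO after division by library totals, with an exact 95% interval of 15.6 to 41.2-fold that covers counting error only. On the log2(TPM + 0.5) scale, which understates changes of low genes, Fpr3 fell by 2.81 (SE 0.43, limma with terms for genotype and sex, adjusted p = 0.00144, n = 4 per group). HET replicate 1 is the only HET male and KO replicate 1 the only KO female. Without KO replicate 1 the sex term therefore leaves HET replicate 1, the library low in Omp, as the only HET library set against KO, and the difference was −2.49 (SE 0.63, limma adjusted p = 0.0736), with that lone sample assumed to vary like the others. Without HET replicate 1, KO replicate 1, with 1 Fpr3 read, is in turn the only KO library set against HET, and the difference was −3.12 (SE 0.62, limma adjusted p = 0.0112) under the same assumption. In limma-voom on the recovered reads, which adds less to low values, the difference was −4.82 (SE 0.61, adjusted p = 0.00633).

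The median tested gene was itself shifted by 0.19 on the log2 scale between the groups, so that differences are also given relative to it, as −3.0 for Fpr3. Every p from limma tests the difference before this subtraction. After each library was divided by its median ratio to the geometric mean of all libraries (median-ratio scaling) the shift was −0.01. As bulk RNA was measured, fewer neurons choosing a receptor and less RNA of it per neuron cannot be told apart, here and for every member below.

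**Figure D1:**
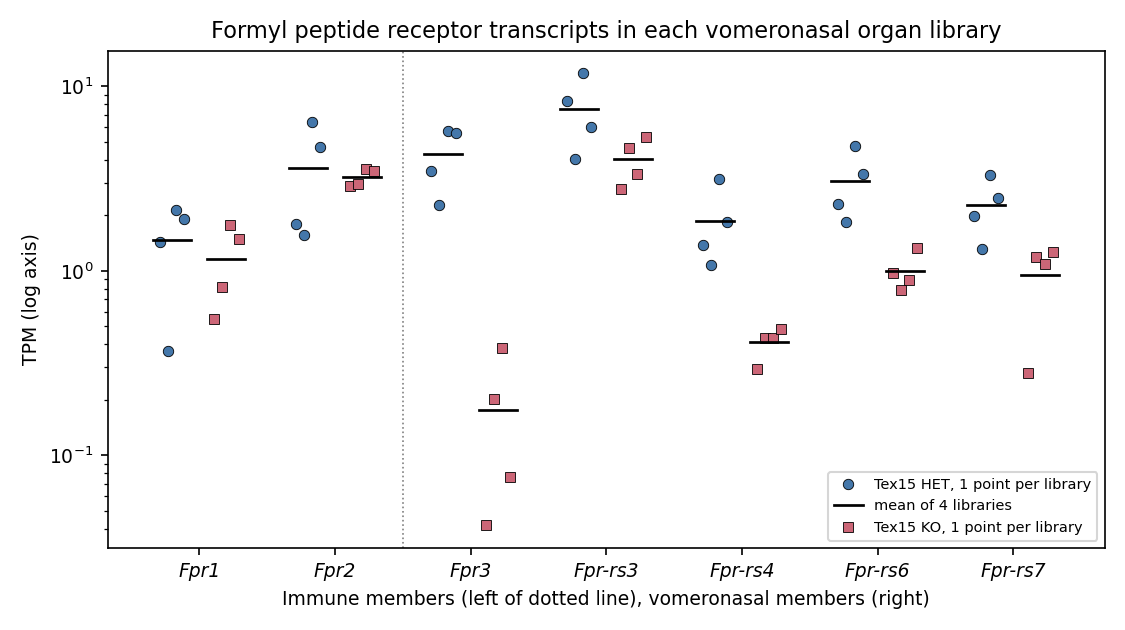
TPM of each member on a log axis, with 1 point per library (circles, HET; squares, KO; 4 libraries each) and a bar at the group mean. Fpr3 in KO lies between 0.0418 and 0.381 TPM, below all HET points, whereas the points of Fpr1 and Fpr2 intermingle.

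The 4 apical members all had lower KO means, but none passed the threshold as deposited. Fpr-rs4 (ENSMUSG00000048062, chr17:18021733-18022704, plus strand) stood at 1.38, 1.08, 3.15 and 1.83 TPM in the HET libraries and at 0.293, 0.430, 0.434 and 0.483 TPM in the KO libraries. The KO libraries lay close together and all below the HET libraries. Its mean was 1.86 ± 0.92 TPM in HET and 0.410 ± 0.0814 TPM in KO (SD, n = 4 each), or 22.1% of HET, and 496 against 100 reads gave a ratio of 4.54-fold lower (exact 95% interval 3.65 to 5.68). The log2 difference was −1.28 (SE 0.41, limma adjusted p = 0.423), or −1.48 relative to the median gene.

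Fpr-rs6 (ENSMUSG00000071275, chr17:20182078-20183097, minus strand) stood at 2.30, 1.83, 4.77 and 3.33 TPM in HET and at 0.974, 0.787, 0.887 and 1.33 TPM in KO. Its nearly identical neighbour Fpr-rs7 (ENSMUSG00000071276, chr17:20113210-20114226, minus strand) stood at 1.98, 1.32, 3.32 and 2.47 TPM in HET and at 0.280, 1.19, 1.08 and 1.27 TPM in KO. Neither gene overlapped between the groups, but for Fpr-rs7 the margin was narrow, from 1.27 in KO replicate 4 to 1.32 in HET replicate 2. The Fpr-rs7 value of KO replicate 1 rested on 4 reads, and that of Fpr-rs6 in the same library on 14. KO means were 32.5% of HET for Fpr-rs6 and 42.0% for Fpr-rs7, with log2 differences of −1.10 (SE 0.42) and −1.19 (SE 0.43) and limma adjusted p-values of 0.835 and 0.702. Relative to the median gene these were −1.30 and −1.38.

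Fpr-rs3 (ENSMUSG00000060701, chr17:20623846-20624877, minus strand) gave the most reads of the family, 432 to 1020 per HET library and 201 to 424 per KO library. Its levels were 8.36, 4.04, 11.8 and 6.04 TPM in HET and 2.79, 4.65, 3.36 and 5.34 TPM in KO. The groups overlapped, with HET replicate 2 below KO replicates 2 and 4. The mean was 7.55 ± 3.31 TPM in HET and 4.03 ± 1.17 TPM in KO (SD, n = 4 each), or 53.4% of HET, and the log2 difference was −0.99 (SE 0.42, limma adjusted p = 1.0), or −1.18 relative to the median gene.

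Counted together, 1 of the 5 vomeronasal members was called lower in KO at an adjusted p under 0.05, beside 76 of all 20305 tested genes (0.374%). At an unadjusted p under 0.05 in limma, 5 of 5 were lower, a rule met by 1.46% of the tested genes. All KO libraries lay below all HET libraries in 4 of the 5, against 0.926% of the tested genes. The median log2 difference of the 5, relative to the median gene, was −1.38.

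The spread among HET libraries of these genes moved together, low in replicate 2 and high in replicate 3, and with it moved the scale of the whole library. The median-ratio factor was 0.666 in HET replicate 2 and 1.39 in HET replicate 3. After division by these factors Fpr-rs6 stood at 2.75 to 3.42 in HET against 0.744 to 1.01 in KO, and Fpr-rs4 at 1.61 to 2.26 against 0.305 to 0.495, in scaled TPM. Fpr-rs7 stood at 1.98 to 2.58 against 0.291 to 1.37, and Fpr-rs3 at 5.48 to 10.9 against 2.81 to 5.36. On this scale all 5 vomeronasal members were free of overlap, against 2.01% of the tested genes, and neither immune member was.

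On the same scale 4 of the 5 vomeronasal members were called lower by limma, against 0.625% of the tested genes: Fpr3 (adjusted p = 0.000674), Fpr-rs6 (0.0104), Fpr-rs4 (0.0173) and Fpr-rs7 (0.0473). Their log2 differences on this scale were −2.98, −1.29, −1.44 and −1.38, which relative to the median gene is close to those as deposited, while the standard errors shrank to between 0.16 and 0.23. Fpr-rs3 was at −1.21 with an adjusted p of 0.119 in limma. Scaling to the sum of Gnai2 and Gnao1 also called 4 of the 5, against 0.616% of genes. In limma-voom on recovered reads, an alternative added after the data were seen, Fpr3 and Fpr-rs4 were called, 2 of the 5 against 0.405% of genes. The values of the 5 members were lower in KO, relative to the median gene, under each alternative that was run. Calls of Fpr-rs4, Fpr-rs6 and Fpr-rs7 depended on the scaling, the model and the animals used, and Fpr-rs3 was called under none.

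HET replicates 1 and 2 differ from the other 6 libraries in their animal numbers and in the number that closes their titles, whose meaning the labels do not state. No KO library shares these numbers, so this pair cannot be compared with KO on its own. Among the other 6, KO replicate 4 has a closing number of its own. Among the other 6 animals (HET replicates 3 and 4 and all KO), fitted by limma without the sex term, Fpr3 stood at −3.21 (adjusted p = 0.000181), Fpr-rs4 at −1.69 (0.0428) and Fpr-rs6 at −1.60 (0.0391), so that 3 of the 5 were called lower, against 0.743% of genes. Fpr-rs7 stood at −1.28 (limma adjusted p = 0.367) and Fpr-rs3 at −1.02 (0.583). These differences include a shift of the median gene by −0.19, and the narrow calls of Fpr-rs4 and Fpr-rs6 are calls of values that include it. With the sex term KO replicate 1 is the only KO library set against HET replicates 3 and 4, since both are female. That fit, in which the lone sample is assumed to vary like the others, called 2 of the 5, Fpr3 and Fpr-rs7, against 1.35% of genes, the latter on 4 reads in KO replicate 1.

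**Figure D2:**
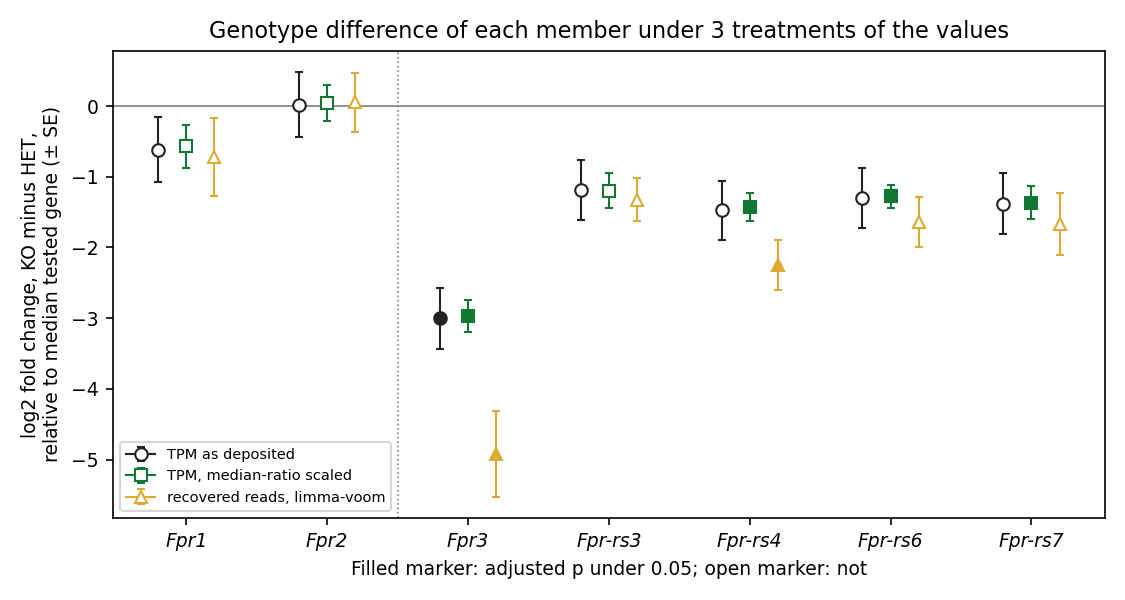
Log2 fold change of each member, KO minus HET, relative to the median tested gene, with its SE, from limma on deposited TPM (circles), on median-ratio scaled TPM (squares) and limma-voom on recovered reads (triangles); filled markers are past the adjusted threshold, which applies to the difference before the median gene is subtracted. Fpr3 is filled in all 3, and the apical members sit between −1.18 and −2.25.

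The immune members had smaller differences as deposited. Fpr2 (ENSMUSG00000052270, chr17:17887824-17893952, plus strand), the receptor for a broad set of peptide and protein ligands on myeloid cells, stood at 1.79, 1.56, 6.39 and 4.69 TPM in HET and at 2.87, 2.96, 3.56 and 3.48 TPM in KO. The 4 KO values fell inside the HET range, between the low pair and the high pair of HET libraries. Its means were 3.61 ± 2.34 and 3.22 ± 0.35 TPM (SD, n = 4 each), and its log2 difference was 0.21 (SE 0.46, limma adjusted p = 1.0), or 0.02 relative to the median gene. The latter was negative under some alternatives, with values from −0.50 to 0.28.

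Fpr1 (ENSMUSG00000045551, chr17:17876471-17883940, minus strand), the receptor for short formylated peptides on neutrophils, stood at 1.43, 0.368, 2.14 and 1.90 TPM in HET and at 0.546, 0.820, 1.78 and 1.49 TPM in KO. It rested on 7 to 31 reads per library. The groups overlapped almost fully, with means of 1.46 ± 0.78 and 1.16 ± 0.57 TPM (SD, n = 4 each) and a log2 difference of −0.42 (SE 0.46, limma adjusted p = 1.0), or −0.62 relative to the median gene. Neither immune member was called in any alternative, and relative to the median gene Fpr1 stood at −0.94 to −0.34 over them.

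Set against each other in the same library, the members of neurons and leukocytes parted between genotypes. The summed TPM of the 5 vomeronasal members exceeded that of the 2 immune members 5.44, 5.47, 3.37 and 2.92 times in HET replicates 1 to 4, and 1.28, 1.92, 1.15 and 1.71 times in KO replicates 1 to 4. The ranges did not overlap, and a ratio within a library is not affected by its scale. The vomeronasal sum was 19.0 ± 7.49 TPM in HET (10.5 to 28.7) and 6.57 ± 1.75 TPM in KO (4.38 to 8.49; SD, n = 4 each). The immune sum was 5.07 ± 3.03 TPM in HET (1.93 to 8.53) and 4.37 ± 0.92 TPM in KO (3.42 to 5.34). The log2 difference of the immune sum was −0.01 over all 8 animals, but −0.80 among the 6 animals without HET replicates 1 and 2, the libraries lowest in both Fpr2 and the leukocyte gene Ptprc. That of the vomeronasal sum was −1.49 over all animals and −1.88 among those 6.

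Among the vomeronasal members, the balance also shifted. Fpr3 made up 22.6 ± 4.3% of the vomeronasal sum in HET and 2.71 ± 2.49% in KO (SD, n = 4 each), and Fpr-rs3 made up 39.6 ± 6.8% in HET and 61.3 ± 4.5% in KO, both without overlap. The share of Fpr-rs4 was 9.64 ± 1.32% in HET and 6.34 ± 0.65% in KO, also without overlap, while the shares of Fpr-rs6 (16.1% and 15.8%) and Fpr-rs7 (12.1% and 13.8%) overlapped. As ratios of one TPM to another within a library, all 4 pairs with Fpr3 were free of overlap between genotypes. These pairs share the same Fpr3 values, so they are not separate observations. The share of pairs free of overlap among other genes was not determined. Fpr3 to Fpr-rs6, for example, ran from 1.20 to 1.68 in HET and from 0.0429 to 0.429 in KO. Among the 6 pairs of apical members 2 were free of overlap, both with Fpr-rs4: Fpr-rs3 to Fpr-rs4 ran from 3.30 to 6.07 in HET and from 7.74 to 11.1 in KO, and Fpr-rs4 to Fpr-rs6 from 0.550 to 0.661 in HET and from 0.301 to 0.546 in KO. With 0.5 TPM added to each value, 0 of these 6 pairs were free of overlap.

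**Figure D3:**
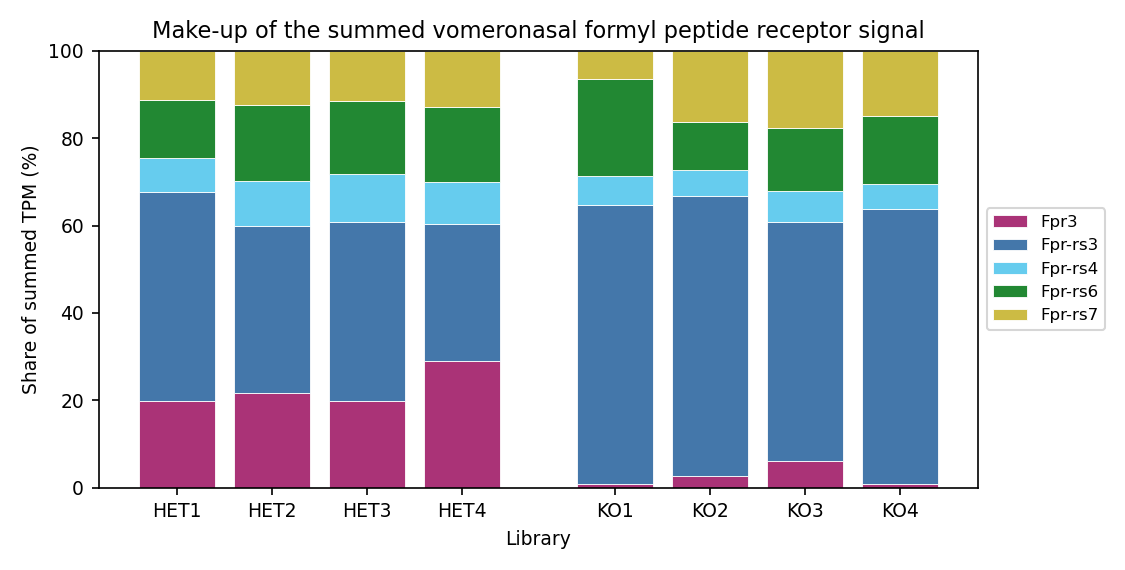
Share of each vomeronasal member in their summed TPM, in percent, with 1 stacked bar per library. Fpr3 takes 19.9% to 29.0% of each HET bar and 0.893% to 6.19% of each KO bar, and Fpr-rs3 takes 54.7% to 64.1% of each KO bar.

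The order of levels in HET, by mean TPM, ran from Fpr-rs3 (7.55) through Fpr3 (4.27), Fpr2 (3.61), Fpr-rs6 (3.06), Fpr-rs7 (2.27) and Fpr-rs4 (1.86) to Fpr1 (1.46), and neighbouring members overlapped in every case. In KO the order was Fpr-rs3 (4.03), Fpr2 (3.22), Fpr1 (1.16), Fpr-rs6 (0.994), Fpr-rs7 (0.954), Fpr-rs4 (0.410) and Fpr3 (0.175). Neighbours in this order overlapped except Fpr2 and Fpr1, and Fpr3 moved from the second place in HET to the last in KO. Levels between genes rest on the transcript lengths the authors used: whole reads were obtained for Fpr-rs3 with a length of 7452 bases and for Fpr-rs4 with 5635, against 1032 and 972 bases in GENCODE M21, whose models of the 4 apical members hold coding sequence only. The fitted lengths were 1485 for Fpr-rs6, 1478 for Fpr-rs7 and 2473 for Fpr3, against 1268 in GENCODE M21. Comparisons of one gene between genotypes do not depend on its length.

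Gnai2 and Gnao1, the G protein subunits of the neurons that carry these receptors, were measured in both genotypes. Gnai2 is also on the list of leukocyte signalling genes used below, so in bulk RNA it does not stand for apical neurons alone. Gnai2 was at 214 ± 85.2 TPM in HET and 248 ± 46.7 TPM in KO, and Gnao1 at 20.8 ± 8.2 and 19.8 ± 3.2 TPM (SD, n = 4 each), with limma log2 differences relative to the median gene of 0.06 and −0.21. Per 1000 TPM of Gnao1, Fpr3 stood at 201, 198, 187 and 235 TPM in HET and at 2.49, 11.1, 19.2 and 3.13 TPM in KO. Per 1000 TPM of Gnai2, the 4 apical members together stood at 79.9, 72.8, 76.2 and 51.9 TPM in HET and at 21.8, 32.6, 20.4 and 28.8 TPM in KO. Neither ratio overlapped between the genotypes. Before this division the apical sum did overlap, at 14.7 ± 6.1 TPM in HET (8.263 to 23.0) and 6.39 ± 1.75 TPM in KO (4.333 to 8.417; SD, n = 4 each). HET replicate 1, the library low in Omp, lay within the range of the other HET libraries in Fpr3 per Gnao1 and was the highest in the apical members per Gnai2.

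Marker lists of these cells held no called gene, which is little to read from in lists this short, with 0.374% lower and 0.212% higher among all tested genes. Apical neuron markers (5 of 5 tested) had a median log2 difference of 0.12, basal neuron markers (5 of 5) of 0.04, and mature vomeronasal neuron markers (4 tested, Trpc2 not among the listed genes) of −0.11, each relative to the median gene. Their summed levels overlapped, at 143 to 391 TPM in HET and 258 to 369 TPM in KO for the apical list, and at 26.6 to 76.4 and 42.4 to 62.0 TPM for the basal list. Of the vomeronasal transduction genes, 0 of 10 tested were called, with a median of −0.10. Omp, on both of the latter lists, stood at 1.27 (SE 0.53, limma adjusted p = 0.702) relative to the median gene and was the 1 gene of each at an unadjusted p under 0.05, with HET replicate 1 at the low value given above. Of all 20305 tested genes 630 were at such a p.

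Markers of other cells in the dissected tissue moved to differing degrees, also with 0 called, and their part in the values of the members was not tested. All 5 main olfactory neuron markers lay below the median gene (median −0.42), with Cnga2 at 12.4 ± 10.8 TPM in HET and 3.23 ± 2.14 TPM in KO (SD, n = 4 each), and the list summed to 46.6 to 89.1 TPM in HET and 45.2 to 53.5 TPM in KO. Of the erythrocyte markers 0 of 5 lay below it (median 0.40), with sums of 3900 to 20930 TPM in HET and 4954 to 14330 TPM in KO. Among the 6 animals without HET replicates 1 and 2 the erythrocyte median was 1.27 without the sex term, with 5 of 5 at an unadjusted p under 0.05 in limma. In that fit 792 of all 20593 tested genes were at such a p. Sustentacular markers (5 of 5 tested) had a median of −0.13.

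Markers of cells that use the immune members were measured as well. Neutrophil markers (11 of 14 tested, 0 called) had a median of −0.30 and summed to 1116 to 3822 TPM in HET and 2535 to 5381 TPM in KO, and macrophage markers (11 of 11 tested, 0 called) had a median of 0.10 and summed to 1681 to 3555 and 1670 to 4807 TPM. Single genes carried both sums, Ltf (2272 and 3460 TPM on average in HET and KO) the neutrophil one and Lyz2 (2378 and 2388 TPM) the macrophage one. Of the more specific neutrophil genes, S100a8 stood at 89.7 and 80.2 TPM and Csf3r at 8.868 and 10.59 TPM, while Ly6g, Elane and Mpo were under the filter. Of the 11 tested neutrophil markers 7 lay below the median gene. Ngp (−0.84, SE 0.65) and Retnlg (−0.81, SE 0.55) lay furthest below it, and Ltf (0.42, SE 0.42) furthest above. General leukocyte markers (5 of 5, 0 called) had a median of 0.11. Relative to the leukocyte gene Ptprc, Fpr2 stood at 0.733, 0.561, 0.762 and 1.05 in HET and at 0.742, 0.864, 0.586 and 0.608 in KO, with full overlap. Of the genes that act with Fpr1 and Fpr2, 0 of 18 leukocyte signalling genes and 0 of 9 tested receptors for other chemoattractants were called, with medians of 0.06 and 0.11. With 0.374% lower and 0.212% higher among all tested genes, a list of this size would rarely hold a call, and the count is no result about these genes. Among the 6 animals named above, fitted without the sex term, these medians were −0.07 and −0.32 and that of the general leukocyte markers was −0.30, again with 0 called. The macrophage median was −0.31 in that fit, with 10 of 11 below the median gene and 2 at an unadjusted p under 0.05 in limma. The neutrophil median was −0.21, with 4 of 11 at an unadjusted p under 0.05, and 2 of the 9 chemoattractant receptors were at such a p. Of all 20593 genes tested in that fit 792 were at such a p.

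Ligands of the family were measured at very different levels. Annexin A1 (Anxa1), a host protein whose peptides bind Fpr1 and Fpr2, stood at 740 ± 217 TPM in HET and 750 ± 319 TPM in KO (SD, n = 4 each). Hebp1, the source of the F2L peptide, stood at 4.96 ± 2.03 and 5.06 ± 1.60 TPM. Of 7 fixed ligand genes 5 were listed and 4 tested, and 0 were called by limma, with a median log2 difference of 0.03. Beside 0.374% lower and 0.212% higher among all tested genes, a count of 0 in 4 is no result about the ligands. Saa3, an acute-phase protein, stood at 0.291 ± 0.339 TPM in HET and 0.897 ± 0.620 TPM in KO, with overlap (1.07, SE 0.41, limma adjusted p = 0.467), and was the 1 ligand gene at an unadjusted p under 0.05, beside 630 of all 20305 tested genes. Camp, the precursor of the CRAMP peptide, stood at 1.08 ± 1.76 and 2.05 ± 2.23 TPM (−0.34, SE 0.58, limma adjusted p = 1.0).

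The other receptor families of the organ give the scale for these values. V1R genes, the main receptors of apical neurons, had a median log2 difference of −0.92 over 143 tested genes, with 9 called lower and 1 higher. V2R genes, the main receptors of basal neurons, had a median of −1.51 over 107 tested genes, with 37 called lower and 6 higher. Among all tested genes 0.374% were called lower and 0.212% higher. After median-ratio scaling the calls were 27 lower and 2 higher for V1R and 56 lower and 7 higher for V2R genes, beside 0.625% lower among all. Relative to the median gene as well, the apical members, at −1.18 to −1.48, lay below the V1R median, and Fpr3, at −3.0, lay below the V2R median. The SE of these members was 0.41 to 0.43, and their distance from the family medians was not tested. In limma-voom on recovered reads, which adds less to low values, the V1R median was −1.25, beside −1.33 for Fpr-rs3 and −2.25 for Fpr-rs4. The V2R median there was −2.06, beside −4.92 for Fpr3. Of the 9 H2-Mv genes, class I-like genes of V2R neurons, H2-M9 was called lower (−2.44, SE 0.48, limma adjusted p = 0.0275), and the median was −0.90. That call was lost in limma-voom on recovered reads, which called 0 of the 9, with 7 at an unadjusted p under 0.05 and a median of −0.97. Of all 20243 genes in that fit 650 were at such a p. Among the 6 animals without HET replicates 1 and 2, fitted without the sex term, 4 of the 9 were called lower (H2-M1, H2-M9, H2-M10.4 and H2-M11), against 0.743% of all tested genes. The H2-Mv median was −0.44 there.

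By likeness of pattern, the genes nearest to Fpr3 were V2R genes and pseudogenes. Likeness was the mean absolute distance between log2(TPM + 0.5) values, each gene centred on its mean over the 8 libraries. The 5 nearest were Vmn2r-ps52 (distance 0.174), Vmn2r-ps128 (0.203), Vmn2r44 (0.205), Vmn2r56 (0.211) and Vmn2r83 (0.222), against a median distance of 1.46 over all tested genes. For the summed apical members they were Vmn2r-ps51 (0.090), Vmn2r-ps38 (0.134), Vmn1r208 (0.136), Vmn2r-ps43 (0.152) and Vmn2r120 (0.154), with a median of 0.653. Of these 10 genes, Vmn2r-ps128 and Vmn2r120 lie on chromosome 17. The distance includes the difference between genotypes, so genes that fell about as far as a member rank near it by construction. Of the 76 genes called lower as deposited, 37 were V2R genes. The likeness is a description over 8 libraries that all genes share.

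The members lie on chromosome 17 in a stretch of V1R and V2R genes. Within 300 kb of the outermost members the table listed 43 further genes, and 30 were tested. Their median log2 difference relative to the median gene was −1.21, with 22 of 30 below it, 5 called lower and 2 called higher, beside 0.374% lower and 0.212% higher among all tested genes. After median-ratio scaling 12 were called lower and 2 higher. The genes called as deposited were Vmn2r96 (−3.24), Vmn1r232 (−2.73), Vmn2r105 (−2.17), Vmn2r100 (−2.08) and Vmn2r97 (−2.03), all lower, and Vmn2r127 (2.30) and Vmn2r-ps123 (2.39), both higher.

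The 10 tested V1R genes and pseudogenes of this stretch, which flank Fpr-rs7, Fpr-rs6 and Fpr-rs3, lay between −0.85 and −2.73, with a median of −1.37, close to the values of those members. The 18 tested V2R genes ran from −3.24 to 2.39, with a median of −0.92. The pseudogene Vmn1r-ps140, next to Fpr-rs6 on the same strand, was at −1.23 (SE 0.41), beside −1.30 for Fpr-rs6. On the far side of Fpr-rs3 the nearest gene, Vmn1r226, was at 3.34 TPM in HET and 1.11 TPM in KO (−1.58, SE 0.47, limma adjusted p = 0.524). On the other side, beyond Fpr1, the nearest listed gene Has1 was under the filter, and the first tested gene, Spaca6, was at 0.40 (SE 0.47).

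**Figure D4:**
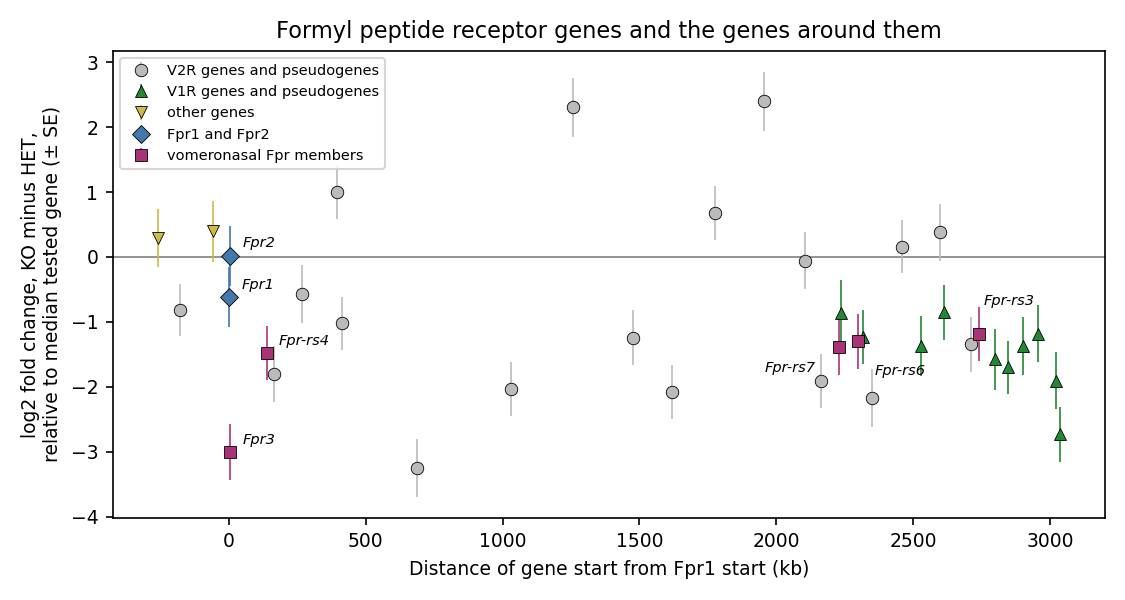
Log2 fold change of each tested gene around the family, KO minus HET, relative to the median tested gene and with its SE, against the distance of its start from that of Fpr1 in kb; the class of each gene is given by marker and colour. V1R genes and the apical members lie between −0.85 and −2.73. V2R genes spread from −3.24 to 2.39, and several of them, such as Vmn2r99 and Vmn2r124, lie in that same range.

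The sex of the animals, unequal between the genotypes, gave no call among the members. The sex coefficients of the 7 genes, male minus female, ran from −0.34 to 0.48 in log2 units, with 0 of 7 called in limma and 0 at an unadjusted p under 0.05. Of all 20305 tested genes 10 (0.0492%) were called, so a count of 0 in 7 is no result about the members. Within females, the difference of mean log2(TPM + 0.5) between KO and HET, here not set against the median gene, was −3.12 for Fpr3, −1.58 for Fpr-rs4, −1.29 for Fpr-rs6, −1.81 for Fpr-rs7 and −1.12 for Fpr-rs3. Within males it was −2.49, −0.98, −0.92, −0.57 and −0.86 in the same order. These values rest on 1 KO female and 1 HET male and were not tested. Fpr2 differed in sign between the sexes, at −0.31 in females and 0.74 in males, and Fpr1 stood at −0.76 and −0.09.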

How the data were processed

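Bulk RNA-seq of 8 vomeronasal organs was used. Per the labels' protocols, RNA with an integrity number above 7 was DNase-treated, selected for poly(A) and made into directional libraries. Per the submitters' processing notes, Trim Galore 0.6.5, cutadapt 5.1, STAR 2.7.11b and deepTools 3.5.5 were used with mm10 (GRCm38). The gene counting, its annotation and the treatment of reads matching several genes are not given in the sources used here. The authors deposited TPM per gene and library, so no count model could be the main test.

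From these values, limma 3.58.1 (R 4.3.3) was run on log2(TPM + 0.5) with terms for genotype and sex over the 20305 genes averaging 0.5 TPM or more. Benjamini-Hochberg adjustment covered all of them, and 0.05 was the threshold. No 2 libraries were duplicates (correlations of log2 values 0.918 to 0.967). Reads were recovered as whole multiples of the TPM worth 1 read, within 0.05 reads, using GENCODE M21 exon lengths or, for 542 genes including the 5 vomeronasal members, a fitted length, for 99.6% of genes. Exact intervals cover counting error only. Genes named by a fixed rule were the members, Gnai2, Gnao1, called list genes (V1R and V2R ones as counts), called flanking genes and nearest neighbours, and the 5 genes most like Fpr3 and like the apical sum. Other named genes, such as Tex15, Omp, Ptprc, Cnga2, Ltf, Lyz2 and Anxa1, were examples picked outside that rule. All 7 members matched RefSeq windows. The pseudogene Fpr-rs5 was not analysed here. Members and lists were chosen with earlier results of these data known. Library numbers did not pair the samples.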

Additional observations from a re-analysis of the deposited data

Results flagged for a closer look

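In the share of Fpr-rs3 in the summed vomeronasal members, KO replicate 3 stood apart from the rest of its group. Its share was 54.7%, against 62.85% to 64.1% in the other 3 KO libraries, and this gap took 0.869 of the range of the group, which is above the 95% limit of Dixon's test for 4 samples. The same library had the highest Fpr3 share among KO animals, 6.19%. In all, 28 groups of 4 were examined in this way, and chance marks about 1 in 20.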

How the results depend on the processing

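Against 1 vomeronasal member called lower, median-ratio scaling and scaling to Gnai2 and Gnao1 each called 4, the 6 animals without HET replicates 1 and 2 (HET replicates 3 and 4 and all KO) gave 3 without the sex term and 2 with it, where the KO arm is KO replicate 1 alone, limma-voom gave 2, and leaving out single libraries gave 0 to 1, the 0 being without KO replicate 1, where the HET arm is HET replicate 1 alone. All genes called numbered 119 (76 lower, 43 higher), 72 with no filter, 371 and 184 among those 6 animals with and without the sex term, and 83 to 254 with single libraries left out. Median-ratio scaling gave 127 lower and 28 higher, and limma-voom 82 lower and 17 higher. Fpr3 kept its sign in all 19 alternatives (−4.92 to −2.28 relative to the median gene, adjusted p from 1.15e-05 to 0.0736 in limma for the difference before that subtraction) and its call in 18. Of these 18, the fit without HET replicate 1 (adjusted p = 0.0112 in limma) and that of the 6 animals with the sex term (1.15e-05) set KO replicate 1 alone against HET. Fpr-rs3 was never called (adjusted p 0.119 to 1.0). Immune members and sex gave 0 calls throughout, which for so few genes is no result about them. The summed vomeronasal difference stayed between −1.88 and −1.15, and the summed immune one was −0.80 among those 6 animals, −0.40 to 0.32 with single libraries left out and −0.20 after median-ratio scaling. The causes were not tested.

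Library numbers are not stated to mark a litter or day, and deviations of same-numbered libraries correlated at −0.06 to 0.10. With the replicate block, 128 genes were called, 1 vomeronasal member among them, with Fpr3 at −3.0 relative to the median gene and an adjusted p of 0.0108 in limma. The lowest read numbers behind a value were 1 to 10 per KO library for Fpr3, 4 to 21 for Fpr-rs7 in KO and 7 to 31 per library for Fpr1.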
